A study of Mus musculus with 6 samples.

Results

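The S100 proteins are small calcium-binding proteins, and 8 of their genes, S100a1, S100a4, S100a6, S100a8, S100a9, S100a10, S100a11 and S100a13, are described here in mouse total RNA. They were taken by symbol from the GENCODE vM21 annotation and make up 8 of the 14 S100a symbols among the 46078 genes of the deposited count tables; the other 6 symbols, all of low counts, are described further on. The 6 libraries fall into 2 groups of 3, one labelled JMML, for juvenile myelomonocytic leukemia, a childhood cancer with an excess of monocytic and granulocytic cells, and one labelled WT, wild type. The series title places them in a mouse model of leukemia that bears on fetal blood formation. The labels give no altered gene, Cre driver, tissue, age, strain or treatment for either group. Neither the model nor the tissue can therefore be described further. Whether replicates come from different animals is not said. The p-values from the fits thus set group differences against the variation among these 6 samples within their groups, not among animals known to be separate.

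S100 proteins work as pairs, most of them dimers of one protein, and each chain binds calcium through a pair of EF-hand loops, after which it can grip a target protein. S100A8 and S100A9 join into calprotectin, the most abundant cytosolic protein complex of neutrophils, which is also plentiful in monocytes, binds zinc and manganese and acts as an alarm signal once released. S100A4, S100A6, S100A10 and S100A11 are found in many motile or adherent cells and bind the cytoskeleton, annexins or both.

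Total counts ranged from 47096464 to 108395459 per library, and the JMML libraries were the deeper ones. The identifiers of JMML replicates 1 and 2 carry the letter F and the other 4 the letter M. Counts of Xist, the RNA that silences an X chromosome, were 54449 and 49961 in these F libraries and 36 or fewer in the M libraries, while the Y-linked gene Ddx3y had 0 counts in those 2 libraries and 3588 or more in each other one. JMML replicate 3 and WT replicate 3 share the first part of their identifiers, and what that part stands for is not given. The letter follows the sex-linked counts, with JMML replicates 1 and 2 of female type and the other 4 libraries of male type. Letter and sex type thus run partly along with the group. With the letter as a covariate, or in the M libraries alone, the contrast rests on JMML replicate 3 against WT. No library was a copy of another, since the counts of every pair of libraries, within and between groups, differed by far more than counting error (the chi-square divided by its degrees of freedom was at least 115).

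All 8 genes lie on mouse chromosome 3 (GRCm38). The 6 genes from S100a1 (90511034 to 90514392) to S100a9 (90692632 to 90695721) occupy 184688 bases, and S100a11 (93520488 to 93526287) and S100a10 (93555080 to 93564643) follow 2824766 bases further on. S100a13 (90514435 to 90524581), S100a4 (90603771 to 90606045), S100a6 (90612882 to 90624181) and S100a8 (90668978 to 90670035) lie between the first pair. S100a1 and S100a13 stand head to head on opposite strands with 42 bases between them. S100a8 and S100a9 are 22596 bases apart, also on opposite strands.

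RefSeq promoter windows (GRCm38.p6), 300 bases from 250 before to 50 after an annotated start, were matched for 7 of the 8 genes, S100a10 being the other. The windows of the calprotectin genes, of S100a4, whose level varied most between JMML libraries, and of S100a13, whose window shares 204 bases with that of S100a1, are shown 5′ to 3′ on the strand of each gene. Capitals mark matches on either strand to TATAAA (the TATA box), TTNNGNAA (a pattern of C/EBP factors), GAGGAA (a core bound by PU.1), TGANTCA (AP-1) and GGGCGG (the GC box). In S100a8 the match to the PU.1 core nearest the start runs directly into the TATA box.
S100a8, chr3:90668821-90669120, plus strand: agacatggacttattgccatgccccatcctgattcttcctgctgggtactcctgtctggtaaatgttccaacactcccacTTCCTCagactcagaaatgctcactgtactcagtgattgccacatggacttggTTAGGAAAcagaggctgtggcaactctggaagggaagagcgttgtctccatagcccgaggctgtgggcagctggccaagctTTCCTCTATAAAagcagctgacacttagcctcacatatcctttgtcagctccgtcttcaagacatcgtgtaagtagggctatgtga
S100a9, chr3:90695672-90695971, minus strand: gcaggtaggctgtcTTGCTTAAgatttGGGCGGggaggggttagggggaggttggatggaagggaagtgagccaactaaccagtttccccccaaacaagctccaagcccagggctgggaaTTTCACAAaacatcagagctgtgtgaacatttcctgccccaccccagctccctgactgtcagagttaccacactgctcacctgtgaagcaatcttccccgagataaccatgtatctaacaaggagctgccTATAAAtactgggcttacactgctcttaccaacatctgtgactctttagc
S100a4, chr3:90603520-90603819, plus strand: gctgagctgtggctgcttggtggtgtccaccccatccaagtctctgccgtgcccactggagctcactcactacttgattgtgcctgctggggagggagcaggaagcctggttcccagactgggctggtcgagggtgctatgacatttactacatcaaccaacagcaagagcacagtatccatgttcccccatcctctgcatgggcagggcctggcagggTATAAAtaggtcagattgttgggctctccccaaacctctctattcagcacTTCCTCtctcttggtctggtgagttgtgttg
S100a13, chr3:90514185-90514484, plus strand: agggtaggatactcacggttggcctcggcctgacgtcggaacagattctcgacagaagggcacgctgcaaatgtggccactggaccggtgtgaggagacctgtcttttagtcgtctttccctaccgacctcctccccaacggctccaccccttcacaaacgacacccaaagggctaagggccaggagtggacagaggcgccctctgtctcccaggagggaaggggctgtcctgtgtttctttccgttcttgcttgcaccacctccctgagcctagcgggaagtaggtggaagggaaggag

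TATAAA was present in the windows of S100a4, S100a8 and S100a9, 3 of the 7, and in 13.6% of all 32851 windows. In S100a8 it began 30 bases before the annotated start and in S100a4 31 bases before it, whereas in S100a9 it began at the start itself. The C/EBP pattern occurred once in the S100a8 window and at 2 places in that of S100a9, and in 40.7% of all windows. GAGGAA was found in the windows of S100a4, S100a8 and S100a11 and in 28.3% of all windows. The S100a11 window held 2 AP-1 matches, present in 7.81% of all windows, and 3 GC boxes, present in 35.7%. S100a1, S100a13 and S100a6 had no match to any of the 5 patterns. The GC content was 61.0%, 59.3% and 61.7% in S100a1, S100a13 and S100a11, 55.3% in S100a4 and between 49.3% and 51.3% in S100a6, S100a8 and S100a9, against a median of 52.7% over all windows. These matches describe letters and do not show binding.

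All 8 genes had higher mean levels in JMML, and 7 of them passed the test. Tested in edgeR by quasi-likelihood, with p-values adjusted by Benjamini-Hochberg over the 18097 genes that passed the filter on low counts, 7 of 8 were higher at an adjusted p under 0.05 and 0 were lower, where 12.4% of all tested genes were called higher, 13.8% lower and 26.2% in either direction. All 8 passed the filter. The median log2 fold change of the 8 was 1.31, against −0.02 over all tested genes. In 7 of the 8 the 3 JMML libraries lay above the 3 WT libraries, which held for 22.9% of all tested genes (47.5% were apart in either direction). With the letter as a covariate 2 were called (5.35% of all genes), in the M libraries alone 3 (5.02%), and without WT replicate 2 there were 4 (5.56%). The count was 5 without JMML replicate 1 (10.5%) or WT replicate 1 (7.67%), with the replicate block (7.5%) and with the exon-length trend removed (12.9%). It was 6 without JMML replicate 2 (8.19%) or JMML replicate 3 (9.5%) and with library totals as the scaling (7.07%). It was 7 without WT replicate 3 (9.0%), with DESeq2 size factors (12.3%), a stricter filter (12.9%) or thinned counts (13.3%), and 8 with DESeq2 (15.1%), limma-voom (12.3%) and no filter (6.95%).

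**Figure D1:**
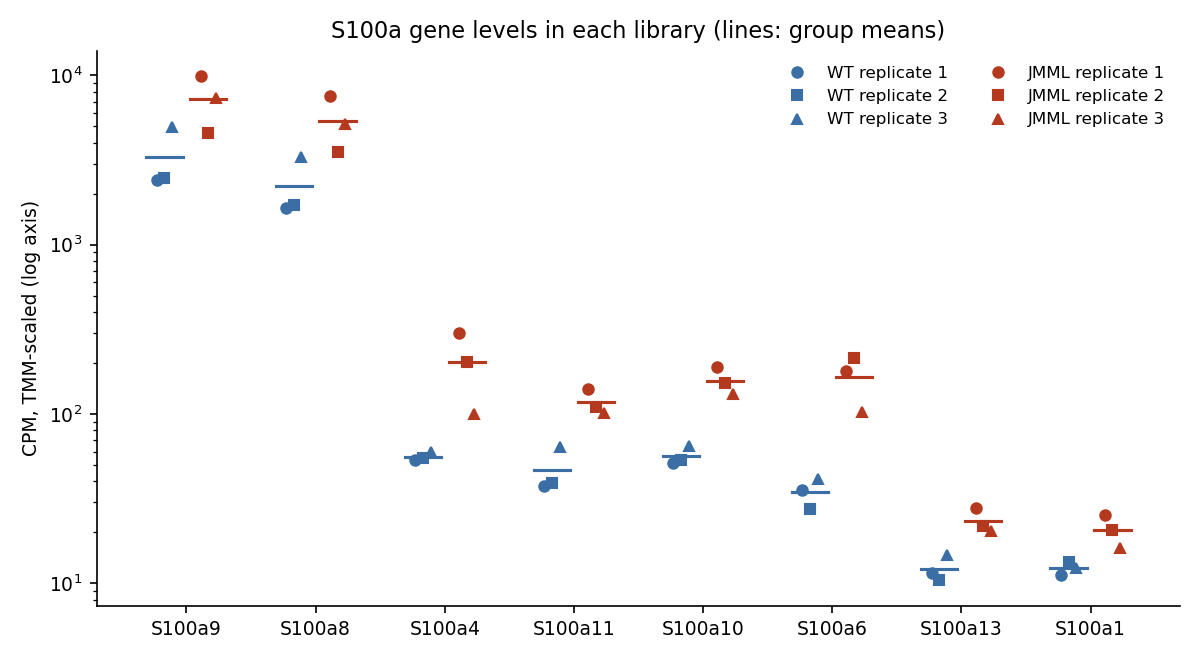
TMM-scaled CPM (log axis) of the 8 S100a genes in each library, WT in blue and JMML in red, with a line at each group mean. The groups overlap only in S100a9, and S100a8 and S100a9 lie far above the other 6 genes.

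The calprotectin genes were among the most abundant transcripts of both groups. S100a8, one chain of calprotectin, had 7567, 3512 and 5172 CPM (counts scaled to a common library size) in the JMML libraries, always given here in the order of replicates 1, 2 and 3, and 1658, 1727 and 3301 in the WT libraries. The lowest JMML library, replicate 2, lay just above the highest WT library, replicate 3. The mean was 5417 ± 2038 CPM (SD, n = 3) in JMML and 2229 ± 929 in WT, a log2 fold change of 1.28 ± 0.37 SE with an adjusted p of 0.0402 in edgeR. The call ended in 8 of 17 other settings, among them the letter as a covariate (adjusted p of 0.146 in edgeR, log2 fold change 1.21) and leaving out JMML replicate 1 (0.98), JMML replicate 3 (1.33), WT replicate 1 (1.14) or WT replicate 2 (1.11).

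S100a9, the larger chain, had 9935, 4585 and 7344 CPM in JMML and 2424, 2485 and 4975 in WT. Here WT replicate 3 lay above JMML replicate 2, so the groups overlapped. The log2 fold change was 1.15 ± 0.38 SE and missed the threshold in edgeR (adjusted p of 0.0614). It was called by DESeq2 (1.14, adjusted p of 0.00437), by limma-voom (1.17, adjusted p of 0.0476) and, in edgeR, without WT replicate 3 (1.61, adjusted p of 0.0250) and without the filter on low counts (1.22, adjusted p of 0.0119). Over all 17 settings the value lay between 0.87 and 1.61.

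Together S100a8 and S100a9 took 1.56%, 0.786% and 1.19% of all counts in the JMML libraries, against 0.430%, 0.467% and 0.857% in the WT libraries. They held between 91.8% and 97.0% of the counts of the 8 genes in every library. Ranked by counts, S100a9 was between the 7th and 16th gene of its library and S100a8 between the 10th and 29th. The 2 genes moved together from library to library, and the ratio of S100a9 to S100a8 counts stayed between 1.31 and 1.51. That ratio was 1.31, 1.31 and 1.42 in JMML and 1.46, 1.44 and 1.51 in WT, lower in each JMML library than in any WT library (two-sided exact permutation p = 0.1, the smallest that 3 against 3 allows).

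S100a6 and S100a4 had the largest fold changes of the 8. S100a6 (calcyclin), which binds annexins and the calcyclin-binding protein Cacybp, had 179, 214 and 103 CPM in JMML and 35.3, 27.6 and 41.5 in WT. Every JMML library stood above every WT library, with replicate 3 the lowest of the JMML group. The log2 fold change was 2.25 ± 0.28 SE (adjusted p of 0.00357 in edgeR), and it was called in all 17 other settings, at 1.56, with the letter as a covariate, to 2.52.

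S100a4 (metastasin), which binds non-muscle myosin and is found in motile cells and fibroblasts, had 301, 204 and 100 CPM in JMML and 53.5, 55.1 and 59.7 in WT. The WT libraries lay close together, while the JMML libraries spanned a log2 range of 1.58, from replicate 3 up to replicate 1. The log2 fold change was 1.85 ± 0.35 SE (adjusted p of 0.0108 in edgeR). It was 0.84 with the letter as a covariate, where the call ended (adjusted p of 0.0512 in edgeR) and 0.88 in the M libraries alone, where it was called. Of the exon bases of S100a4, 51.7% are shared with another annotated gene on the same strand, Gm42674, which is listed at 0 counts in every library. How reads in shared bases were assigned is not given in the sources used here.

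S100a10 and S100a11, the pair that lies apart on the chromosome, were both higher in every JMML library. S100a10 (p11), which does not bind calcium and sits in a tetramer with annexin A2 at the cell membrane, had 189, 152 and 131 CPM in JMML and 51.2, 53.5 and 64.7 in WT. The groups were well apart, and the log2 fold change of 1.48 ± 0.17 SE (adjusted p of 0.00281 in edgeR) was called in all 17 other settings, at 1.21 to 1.63. S100a11 (calgizzarin), a partner of annexin A1, had 141, 111 and 101 CPM in JMML and 37.4, 39.0 and 63.7 in WT, again with WT replicate 3 the highest of its group. Its log2 fold change was 1.33 ± 0.23 SE (adjusted p of 0.00830 in edgeR). The call of S100a11 ended with the letter as a covariate (adjusted p of 0.0559 in edgeR) and in the M libraries alone (0.0623), at log2 fold changes of 1.12 and 1.16. Processed pseudogenes of S100a11 could take some of its reads. Gm7665 and Gm12854, at 98.7% and 99.0% identity over 297 bases, had 147 to 845 and 168 to 970 counts. With both added to S100a11 its log2 fold change was 1.33 (adjusted p of 0.00811 in edgeR).

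S100a13 and S100a1 had the smallest changes. S100a13, which takes part in the release of interleukin-1 alpha and fibroblast growth factor 1 without a signal peptide, had 28.0, 21.7 and 20.4 CPM in JMML and 11.5, 10.4 and 14.8 in WT. The groups did not overlap, and the log2 fold change was 0.93 ± 0.19 SE (adjusted p of 0.0143 in edgeR). Its call ended with the letter as a covariate (0.74), in the M libraries alone (0.78) and without WT replicate 2 (0.82). S100a1, best known from heart and skeletal muscle, had 25.3, 20.8 and 16 CPM in JMML and 11.2, 13.4 and 12.4 in WT. JMML replicate 3 lay closest to the WT libraries. The log2 fold change of S100a1 was 0.75 ± 0.19 SE (adjusted p of 0.0282 in edgeR), and the call ended in 10 of 17 other settings, including the letter as a covariate (0.38) and the M libraries alone (0.42), leaving out any single library other than JMML replicate 3, and library totals alone as the scaling (0.55), which shifts the median of all genes by −0.18. The ratio of S100a13 to S100a1 counts was 1.10, 1.05 and 1.27 in JMML and 1.02, 0.773 and 1.19 in WT, so the head-to-head neighbours overlapped between groups in this ratio (two-sided exact permutation p = 0.4).

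**Figure D2:**
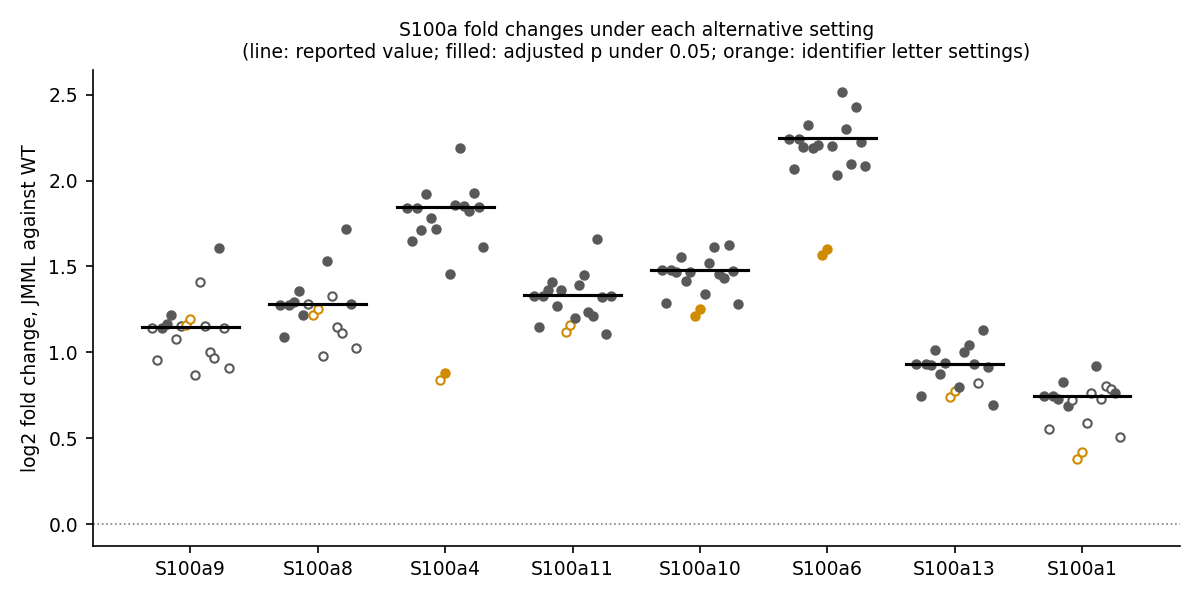
Log2 fold change of each S100a gene (JMML against WT) in every other setting tried, with a black line at the reported value, filled points at an adjusted p under 0.05 and the settings that use the identifier letter in orange. Every point lies above 0, and S100a4, S100a6 and S100a1 fall furthest with the letter.

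Scaled to exon length, the order of the 8 genes was nearly the same in both groups. In JMML, S100a9 had 13961 ± 5125 CPM per kilobase of exon (SD, n = 3) and S100a8 had 7806 ± 2937, followed by S100a4 (345 ± 171), S100a11 (230 ± 40.4), S100a10 (130 ± 24.4), S100a6 (121 ± 41.4), S100a13 (32.7 ± 5.64) and S100a1 (29.8 ± 6.68). The WT means ran from 6312 ± 2788 for S100a9 to 17.1 ± 3.19 for S100a13, which there stood below S100a1 (17.8 ± 1.60). Neighbours in this order whose JMML libraries overlapped were S100a9 with S100a8, S100a4 with S100a11, S100a10 with S100a6, and S100a13 with S100a1. The JMML libraries of S100a8 and S100a4, of S100a11 and S100a10, and of S100a6 and S100a13 did not overlap. Taken library by library, S100a9 was above S100a8 and S100a13 above S100a1 in each JMML library, while the order of S100a4 and S100a11 and that of S100a10 and S100a6 differed between libraries. Exon lengths are those of all annotated isoforms joined, 511 to 1367 bases, so the levels of genes with long minor isoforms are understated on this scale.

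JMML replicate 1 was the highest JMML library for 7 of the 8 genes, S100a6 being the other. Replicate 3 was the lowest for 6 genes, and replicate 2 was the lowest for S100a8 and S100a9 alone. In WT, replicate 3 was the highest library for 7 of the 8, all but S100a1. By Pearson correlation of log2 CPM over the 6 libraries, among 8029 genes whose log2 CPM averaged at least 4, S100a8 and S100a9 were each other's closest match (r = 0.996). Lgals3, a galectin of macrophages, was most like S100a6 (r = 0.998). The closest to S100a10 was Rab2a, to S100a11 Ensa, to S100a4 Ubxn6, to S100a1 Igbp1 (each r = 0.999) and to S100a13 Cyp4f18 (r = 0.998). Chil3, a chitinase-like protein of neutrophils and macrophages, also stood among the 3 closest to S100a4 (r = 0.996). Tyrobp, the adaptor of many myeloid receptors, was among the 3 closest to S100a13 (r = 0.996). The others among the 3 closest had r of 0.993 to 0.998. They were Ap1s2 and Tlr8 for S100a1, Ppm1a for S100a4, Ptpn1 and Tiam2 for S100a6, and Mcemp1 for S100a13. For S100a8 they were Snw1 and Hmgb2, and for S100a9 Tmem154 and I830077J02Rik. For S100a10 they were Cd300lf and Pira2, and for S100a11 Pygl and Pi16. The 6 points come from 2 groups that differ, and the letter F falls in JMML libraries alone. Likeness that follows the group and likeness that follows the letter were not told apart, so these values describe likeness only.

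The remaining S100 genes were close to absent. Of 10 other family symbols looked up, 9 were in the tables, and S100a7l2 was not matched. S100z had 0 counts in every library, and S100a2, S100a5, S100a7a, S100a14 and S100g had at most 13 in any. S100a3 had 10 to 36 counts, S100b had 0 to 30 and S100a16 had 28 to 238. Of the 3 that could be tested (S100a3, S100a16 and S100b), edgeR called 0 in either direction, with 1 at an unadjusted p under 0.05, and DESeq2 called 1 lower. That gene was S100a16, at 1.22, 0.865 and 0.308 CPM in JMML and 1.68, 2.11 and 4.09 in WT, every JMML library below every WT library (log2 fold change −1.72 ± 0.56 SE, adjusted p of 0.0579 in edgeR). Apart from S100a genes, 61 protein-coding genes are annotated between the outermost members, most of them genes of the skin barrier, and only 4 passed the filter on low counts. Of these 1 was higher, Ivl (involucrin), at a mean of 0.743 CPM in JMML and 0.151 in WT; it is named after its value was seen. Chtop, the nearest gene before S100a1 at 1536 bases, had a log2 fold change of 0.28 without a call (adjusted p of 0.128 in edgeR). Of 17 tested protein-coding genes in the 500000 bases before S100a1, 4 were called higher and 2 lower. Over all tested genes these shares were 12.4% and 13.8%.

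Most tested annexins, calcium-dependent membrane proteins that several S100 proteins bind, were higher as well. Of 9 tested annexins 8 were called higher and 0 lower (over all tested genes 12.4% and 13.8%), with a median log2 fold change of 0.88. Anxa2, the partner of S100A10, had 687, 602 and 579 CPM in JMML and 195, 182 and 226 in WT. The groups were far apart (log2 fold change 1.63 ± 0.14 SE, adjusted p of 0.00186 in edgeR), and the call held in all 17 other settings, at 1.45 to 1.76. The ratio of S100a10 to Anxa2 counts was 0.276, 0.252 and 0.226 in JMML and 0.263, 0.294 and 0.286 in WT, overlapping between the groups (two-sided exact permutation p = 0.2). Anxa6 (1.25 ± 0.15 SE), Anxa4 (1.12 ± 0.14) and Anxa5 (0.88 ± 0.14) had the next smallest p-values among the annexins. The only tested annexin without a call, named after its value was seen, was Anxa9 (−0.50 ± 0.21 SE). Anxa9 went the other way, at 5.27, 4.13 and 4.38 CPM in JMML and 7.51, 6.52 and 5.40 in WT. Every JMML library lay below every WT library.

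Receptors of extracellular S100 proteins went several ways. Of 9 tested, 3 were called higher and 0 lower (over all tested genes 12.4% and 13.8%), with a median log2 fold change of 0.20. The called genes were Emb (embigin, a receptor reported for S100A8 and S100A9; 1.30 ± 0.15 SE), Alcam (0.99 ± 0.21) and Cd14, the co-receptor of Toll-like receptor 4 (2.59 ± 0.58). Cd14 differed widely within JMML, at 21.9, 20.8 and 4.11 CPM against 2.13 to 2.94 in WT. Ager, the receptor RAGE, had 4.38, 4.72 and 2.49 CPM in JMML and 2.95, 2.95 and 2.72 in WT, without a call (log2 fold change 0.43), and its direction turned with the letter as a covariate (−0.21) and in the M libraries alone (−0.17). Tlr4 had 8.05, 7.99 and 6.83 CPM in JMML and 22.4, 6.57 and 5.25 in WT, where WT replicate 1 stood apart. Its log2 fold change was −0.58 with all libraries and 0.42 without WT replicate 1, with no call either way.

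Among 7 intracellular partners, 2 were called higher and 0 lower (over all tested genes 12.4% and 13.8%), with a median log2 fold change of 0.44. Ahnak, the giant scaffold that S100A10 and annexin A2 bind, was higher (0.92 ± 0.20 SE, adjusted p of 0.0175 in edgeR; 0.49 without a call with the letter as a covariate), as was Sugt1, a chaperone adaptor that binds S100A6 (0.61 ± 0.12 SE). Myh9, the myosin heavy chain bound by S100A4, had a log2 fold change of 0.52 ± 0.17 SE and missed the threshold (adjusted p of 0.0544 in edgeR). Fgf1 (8 to 99 counts) and Il1a (10 to 175 counts), cargo of S100A13-dependent release, were low and lay in every JMML library below every WT library. The nearest libraries of Fgf1 were at 0.512 CPM in JMML and 0.585 in WT. Neither gene was called in edgeR (log2 fold changes of −2.03 ± 0.66 and −2.07 ± 0.69 SE), whereas DESeq2 called 2 partners lower. In edgeR 2 were also called lower without JMML replicate 1, and 1 partner was called higher without WT replicate 1 or WT replicate 2. Il1a is named after its value was seen. All 6 transcription factor genes of a list reported to act at the calprotectin genes were called higher, with a median log2 fold change of 0.93. Spi1, which encodes PU.1, was at 1.13 ± 0.14 SE, Cebpd at 0.87 ± 0.16, Stat3 at 0.68 ± 0.12 and Cebpb at 1.32 ± 0.25. With the letter as a covariate 3 of the 6 were called, and without WT replicate 2 also 3.

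**Figure D3:**
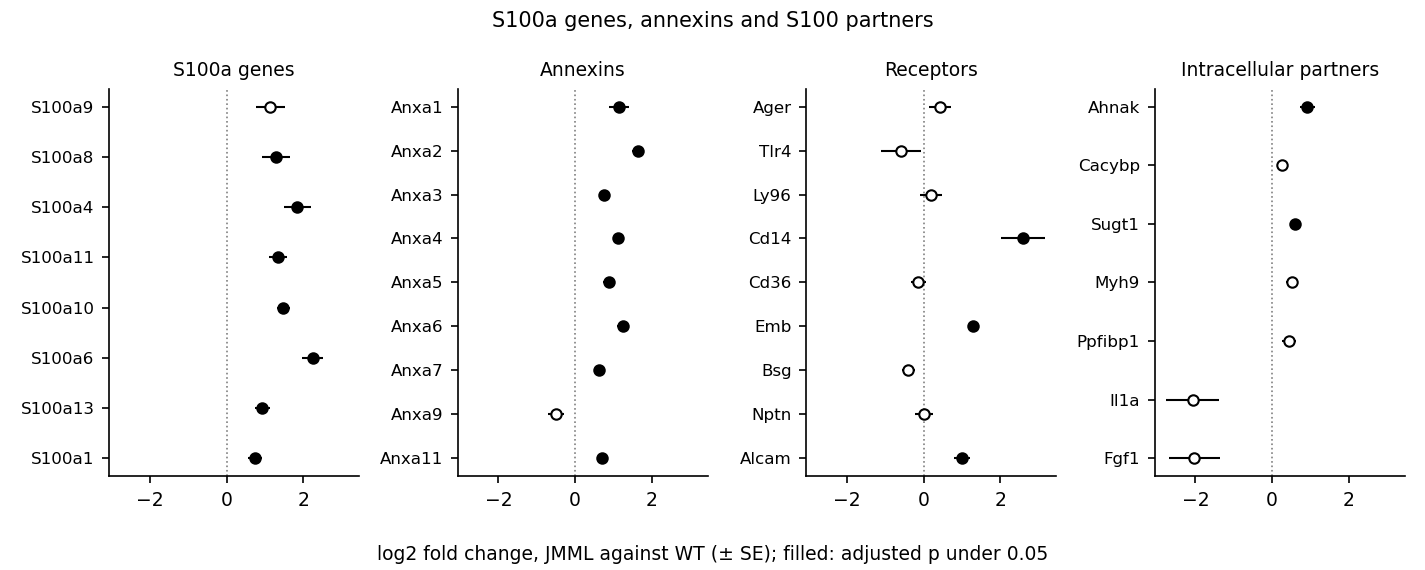
Log2 fold change (JMML against WT, with SE bars) of the 8 S100a genes and of the tested annexins, S100 receptors and intracellular partners, with filled points at an adjusted p under 0.05. All 8 S100a genes and 8 of the 9 annexins lie above 0, while receptors and partners lie on both sides.

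Some markers of granulocytes and monocytes were higher in JMML, as the S100a genes were. Most markers of B cells, T cells, erythroid cells and megakaryocytes were lower. In bulk RNA, more cells of a type and more RNA per cell cannot be told apart. Over all tested genes 12.4% were called higher and 13.8% lower. Of 12 neutrophil granule markers 3 were called higher. The summed level of the 12 was 14746 to 19595 CPM in JMML and 6654 to 12656 in WT, where replicate 3 was the highest. Without Chil3 the sums were 11308, 9366 and 12843 CPM in JMML and 5693, 5583 and 11171 in WT, so that JMML replicate 2 lay below WT replicate 3. Without WT replicate 3 there were 8 called higher (9.0% of all genes) and without WT replicate 2 there was 1 (5.56%). Mmp8 (2.62 ± 0.43 SE) and Chil3 (2.12 ± 0.40) had the smallest p-values. Of 6 primary granule markers 5 were higher, with sums of 3471 to 5134 CPM in JMML and 2861 to 3328 in WT, led by Ms4a3 (1.26 ± 0.11) and Ctsg (1.0 ± 0.14). Without Ctsg or without Ms4a3 the primary granule sums overlapped between the groups. Of 6 monocyte markers 4 were higher, with sums of 2186 to 2992 CPM in JMML and 1135 to 1260 in WT, led by Ly6c2 (1.48 ± 0.14) and F13a1 (1.55 ± 0.22). The monocyte marker Cx3cr1, named after its value was seen, went the other way. It lay in every JMML library below every WT library (−0.37 ± 0.16 SE), without a call in edgeR. Of 8 B-cell, 7 T-cell, 7 erythroid and 7 megakaryocyte markers, 8, 6, 5 and 7 were lower. The remaining lists gave 1 of 8 macrophage markers higher and 3 lower, 3 of 6 dendritic-cell markers higher and 1 lower, 0 of 5 natural killer cell markers in either direction in edgeR (1 at an unadjusted p under 0.05, and 1 in DESeq2, Gzma), 6 of 8 endothelial and stromal and 5 of 6 mast-cell and basophil markers lower. Of 4 epithelial markers 1 was higher and 2 lower, of 2 glial markers 2 were lower, and of 2 muscle markers 0 were called in edgeR, 0 at an unadjusted p under 0.05 and 0 in DESeq2. Several of these counts rested on single libraries: leaving out JMML replicate 3 or any 1 WT library left 3 primary granule markers higher and 1 or 2 erythroid markers lower, leaving out JMML replicate 3, WT replicate 1 or WT replicate 2 left 1 to 3 mast-cell and basophil markers lower, and without WT replicate 2 there were 3 T-cell markers lower. The macrophage, dendritic, natural killer, epithelial and glial counts moved by 1 or 2 genes when a library was left out. Defining markers of keratinocytes and Schwann cells, which are rich in S100 proteins elsewhere in the body, were at or near 0: Krt5, Krt14 and Sox10 each had 0 counts in at least 1 library and group means of at most 0.0804 CPM. The part of these cell types in the S100a differences was not tested.

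The S100a counts were also set against those markers within each library. The summed counts of S100a8 and S100a9 were 0.893, 0.549 and 0.812 times those of the neutrophil granule list in the JMML libraries and 0.595, 0.633 and 0.654 times in WT, so the groups overlapped (two-sided exact permutation p = 0.4). That overlap rested on 1 marker, Chil3. Without it, a choice made after the values were seen, the ratio was 1.55, 0.865 and 0.974 in JMML and 0.717, 0.755 and 0.741 in WT, with every JMML library above every WT library. Leaving out any other single marker of the list kept the overlap. Against the monocyte list the ratio of S100a8 and S100a9 was 5.91, 2.71 and 5.73 in JMML and 3.45, 3.34 and 7.29 in WT, again overlapping (exact permutation p = 1). Against the primary granule list it was 5.04, 1.58 and 2.46 in JMML and 1.23, 1.29 and 2.89 in WT (exact permutation p = 0.5).

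The summed counts of S100a4 and S100a6 were 0.0245, 0.0283 and 0.0132 times those of the neutrophil granule list in JMML and 0.0129, 0.0124 and 0.00799 times in WT. Against the monocyte list the ratio of S100a4 and S100a6 was 0.162, 0.140 and 0.0930 in JMML and 0.0751, 0.0655 and 0.0891 in WT, and against the primary granule list it was 0.138, 0.0813 and 0.0399 in JMML and 0.0267, 0.0252 and 0.0354 in WT. For each list every JMML library was above every WT library, with JMML replicate 3 close to the highest WT library (two-sided exact permutation p = 0.1 for each, the smallest that 3 against 3 allows, with 12 ratios computed). This separation was narrow. It ended without Ltf or Camp in the neutrophil granule list, without Mpo in the primary granule list and without Ccr2 or Csf1r in the monocyte list. The ratio of S100a4 and S100a6 to S100a8 and S100a9 was 0.0274, 0.0516 and 0.0162 in JMML and 0.0218, 0.0196 and 0.0122 in WT, so the groups overlapped and a difference between the 2 pairs was not shown (two-sided exact permutation p = 0.3).

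**Figure D4:**
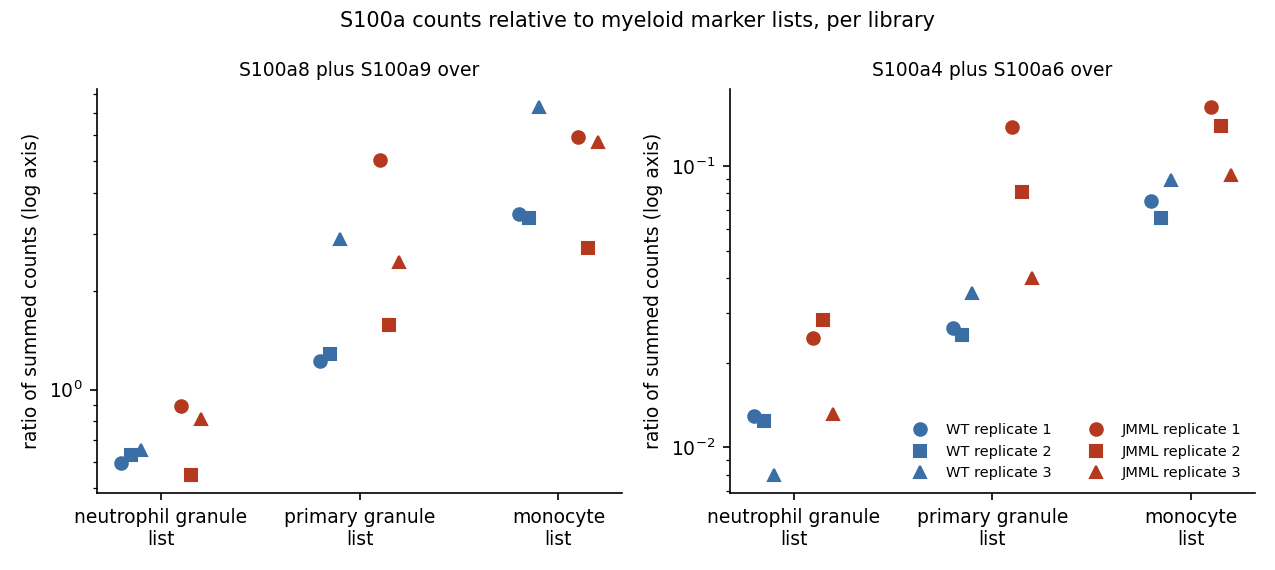
Summed counts of S100a8 and S100a9 (left) and of S100a4 and S100a6 (right) divided by the summed counts of 3 myeloid marker lists in each library (log axes), WT in blue and JMML in red. With the full lists the groups overlap on the left and are narrowly apart on the right, where JMML replicate 3 lies nearest to WT; on the left the neutrophil granule overlap ends without Chil3, and on the right each separation ends when a single marker (Ltf, Camp, Mpo, Ccr2 or Csf1r) is left out.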

How the data were processed

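Total RNA of 3 JMML and 3 WT samples was sequenced, per the labels' protocols, from stranded libraries depleted of ribosomal RNA. For each sample the authors deposited 1 table of whole-number counts per gene. The submitters' processing notes name the build GRCm38 and, with no role stated, DESeq2 1.22.2, R 3.5.0, StringTie 1.3.3b, Picard 2.0.1, STAR 2.5.3a and bcl2fastq 2.18.0.12. Not given in the sources used here are the counter, annotation release, strand setting and treatment of read mates. Even values made up 51.6% to 58.8% of counts from 1 to 20, so a count need not be 1 independent molecule.

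Of 46078 identifiers, 45229 matched GENCODE vM21, and the other 849 held at most 0.167% of a library's counts. Genes passing filterByExpr (18097) were scaled by TMM and fitted over all 6 libraries with edgeR 4.0.16 (R 4.3.3) by the quasi-likelihood test, group as the only term, with Benjamini-Hochberg adjustment over all tested genes and a threshold of 0.05. CPM are counts divided by the TMM-scaled total and set to the usual common library size. The script was tested on simulated counts. Within-library ratios were compared by a two-sided exact permutation test. Alternatives used DESeq2 1.42.0, limma-voom (limma 3.58.1), other scalings and filters, a replicate block, the identifier letter, each library left out, thinned counts and a correction for exon length. Summing S100a11 with its pseudogenes (found with BLAST 2.17.0), and leaving out libraries or single marker genes in the ratios, were chosen after seeing the data.

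The 8 genes and the lists were chosen with earlier results of these data known. Named were the 8 genes and the other S100 genes whatever their values, and Anxa2, Ager, Tlr4 and Ahnak. By the smallest p, up to 4 genes were named from each list of annexins, receptors, partners and transcription factors, and up to 2 from each cell type list. The rule also took in the 3 genes most correlated with each S100a gene and the nearest neighbours on the chromosome. All of these correlated genes are named, but not every neighbour is. Exceptions are marked in the text. A result for 1 marker gene is not reported here.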

Additional observations from a re-analysis of the deposited data

How the results depend on the processing

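All 8 S100a genes kept a positive log2 fold change under the 17 alternatives, and 0 were called lower in any. S100a6, S100a10 and Anxa2 were called in each of the 17. The number of S100a genes called higher, 7 of 8 in the reported analysis, was 2 with the identifier letter as a covariate, 3 in the M libraries alone (1 JMML library, assumed to vary like WT) and between 4 and 7 with 1 library left out, lowest without WT replicate 2. The genes called in all, 4737, were 2219, 2310 and 2203 to 4003 in those settings; without JMML replicate 2 they were 3043 and without WT replicate 1 they were 3136. Log2 fold changes changed sign for Ager, at −0.21 with the letter and −0.17 in the M libraries alone, and for Tlr4, at 0.42 without WT replicate 1. With single libraries left out Tlr4 ran from −0.90, without WT replicate 3, to that value. The cause was not tested. With the replicate number as a block, 2809 genes and 5 of the 8 S100a genes were called. The labels do not say that a number pairs samples, although both replicates 3 share the first part of their identifiers, and deviations of same-numbered samples correlated at −0.20, 0.05 and −0.14, so the block is given only here. Depth did not limit the 8 genes, but at most 36 counts for S100a3 and 30 for S100b left those folds imprecise.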
